A study of Mus musculus with 45 samples.

Results

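The replication-dependent histone genes were taken as all genes of the deposited count table whose symbol begins with Hist1h, Hist2h, Hist3h or Hist4h, with symbols marked -ps left out. This gave 69 of 35372 genes, which carry 68 symbols because Hist2h2bb is listed under 2 gene identifiers. Among those found in the GENCODE M21 annotation, Hist1h2al is classed as a processed pseudogene and 1 Hist2h2bb entry as a lincRNA, and the others are protein-coding. The members comprise 6 genes for the linker histone H1, 19 for H2A, 19 for H2B, 12 for H3 and 13 for H4. By symbol, 55 belong to the Hist1 cluster on chromosome 13, 11 to Hist2 on chromosome 3, 2 to Hist3 on chromosome 11 and 1 is Hist4h4 on chromosome 6. Coordinates below are those of GRCm38.

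Core histones (H2A, H2B, H3 and H4) form the nucleosome around which DNA is wrapped, and H1 binds the DNA that enters and leaves it. Replication-dependent histone genes supply these proteins while DNA is copied, and most of their mRNAs end in a conserved stem-loop in place of a poly(A) tail. Embryonic stem cells (ESCs) divide fast and spend much of their cycle in S phase, and libraries made from rRNA-depleted total RNA, as here, keep mRNAs without a poly(A) tail.

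All 45 libraries come from wild-type male E14tg2a ESCs, a single established line of the 129/Ola background. The ESCs had been kept either in 2iL (N2B27 medium with LIF and the inhibitors CHIR99021 and PD0325901, 23 libraries) or in SL (serum and LIF, 22 libraries), and were then differentiated along 3 courses named as in the labels: EB (suspension culture in serum without LIF), EpiSC (adherent culture in N2B27 with Fgf2 and ActivinA) and Neural (adherent culture in N2B27). Each medium and course gave 1 library on days 0, 1, 1.5, 2, 2.5, 3, 5 and 7, except that SL day 0 is a single library outside any course and that 2iL EpiSC day 5 was not analysed here. The 3 courses of a day therefore served as replicates for a day, medium and day combinations served as replicates for a course, and p-values measure the spread between such libraries. The days of a series (1 medium and course) are not independent samples of its course or medium.

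Library totals, in units of 1e6 counts, ranged from 13.1 to 39.8 (median 18.2). Levels are given as CPM, counts scaled to that unit of library total, and 3 counts, taken as the floor, equal 0.165 CPM at the median depth. Summed over 6 naive ESC markers (Zfp42, Tfcp2l1, Esrrb, Klf2, Prdm14 and Nanog), levels were 3934 to 4187 CPM in 2iL at day 0, 2249 CPM in SL at day 0 and 74.4 to 288 CPM at day 7. The 2 pluripotency markers Pou5f1 and Sox2 summed to 714 to 978 CPM at day 0 and to 118 to 288 CPM at day 7. At day 7 the 4 neural markers reached 344 to 536 CPM in Neural, 283 to 374 CPM in EpiSC and 97.2 to 166 CPM in EB, and the 3 epiblast markers 17.1 to 32.9, 66.6 to 77.9 and 63.7 to 135 CPM in these courses. The summed level of 6 mesendoderm markers was highest in Neural (325 to 336 CPM, against 228 to 239 CPM in EB and 34 to 38 CPM in EpiSC). Such sums do not give the order of single genes. At day 7 from 2iL and SL, T was at 73.1 and 56.2 CPM in EB and at 0.75 and 0.663 CPM in Neural. Gata6 was at 37.3 and 21.3 CPM in EB and at 98.7 and 110 CPM in Neural. The 4 blood and endothelium markers reached 158 CPM at most. No marker of the first 5 lists was at 0 in these groups, and 1 blood and endothelium marker was at 0 in day 0 and in EpiSC day 7 libraries.

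Before any course began, the 3 libraries of 2iL day 0 already differed in the members. Their summed level was 19658 CPM in the library labelled EB, 13882 CPM in that labelled EpiSC and 21333 CPM in that labelled Neural. Relative to the Neural library, 63 of 69 members were lower in the EpiSC library (median log2 difference -0.58) and 39 were lower in the EB library (median -0.19). The signal recognition particle RNA 7SL, read as Rn7s1, stood at 10287, 7108 and 24290 CPM in these libraries. Comparisons between courses and between media below therefore start from unequal libraries. Counts or median log2 fold changes without single courses are given beside the comparisons between media. Counts within each medium are given beside those between courses on days 1 to 2.

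Stem-loops are shown first because they define this class of mRNA. The pattern searched was GG, any 2 bases, CTT, 1 base, T, 1 base, AG, 2 bases and CC, on the sense strand of GENCODE M21 transcripts (GRCm38), in which 67 of 69 members were found. They occurred in 44 of these 67 members (65.7%) and in 92 of 21836 other protein-coding genes (0.421%). Several members without a match have short annotated transcripts, such as Hist1h4k (312 bases), Hist1h2bl (381), Hist1h2ai (393) and Hist1h3h (411). Others, such as Hist2h2be (2620), are longer. A missing match does not show that a gene lacks the stem-loop, since the annotated transcript may end before it. The most frequent form, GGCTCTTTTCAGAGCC, was present in 24 members, namely 3 H1, 10 H2A, 6 H2B and 5 H3 genes, whereas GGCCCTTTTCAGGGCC was present in 7 members, all of them H4 genes. Members named in the results are given below with flanking bases, the match in capitals.
Hist1h1e: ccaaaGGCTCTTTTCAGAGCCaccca
Hist1h1t: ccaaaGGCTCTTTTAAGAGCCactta
Hist3h2a: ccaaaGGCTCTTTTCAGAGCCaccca
Hist3h2ba: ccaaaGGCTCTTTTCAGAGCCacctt
Hist1h3g: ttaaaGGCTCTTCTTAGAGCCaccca
Hist1h4a: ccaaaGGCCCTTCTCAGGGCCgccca
Hist4h4: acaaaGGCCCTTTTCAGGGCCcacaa
Hist1h1e and the Hist3 genes share the most frequent form, Hist4h4 carries the H4 form, and Hist1h1t carries one found in 6 members. In 22 members the annotated transcript runs more than 100 bases past the match, as in Hist3h2a and Hist4h4, and in the other 22 it runs 100 bases or less.

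Promoters, taken from RefSeq (GRCm38.p6) as the 250 bases before and 50 after the start, were found for 61 members. They were searched on both strands for the octamer ATTTGCAT, for TATAAA, for CCAAT and for AAACACA, the H1 box. The octamer was found only in H2A (41.2% of promoters) and H2B genes (43.8%), against 1.74% of all 32851 RefSeq promoters. The H1 box was present in 5 of 6 H1 genes (83.3%, against 7.18% of all promoters), and Hist1h1a was the one without it. CCAAT was present in every H1, H2A, H2B and H3 promoter and in 25% of H4 promoters (37.4% of all), and TATAAA in 57.4% of members (13.6% of all). The promoters of the members that differed most in the results follow, with matches on either strand in capitals, none of which overlaps another.
Hist1h1a, chr13:23763418-23763717, plus strand: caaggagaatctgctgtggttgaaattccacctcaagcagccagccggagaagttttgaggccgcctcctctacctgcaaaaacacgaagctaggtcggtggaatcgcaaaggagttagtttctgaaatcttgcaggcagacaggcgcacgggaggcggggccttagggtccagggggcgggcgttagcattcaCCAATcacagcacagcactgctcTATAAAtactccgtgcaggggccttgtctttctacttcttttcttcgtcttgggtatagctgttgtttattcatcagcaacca
Hist1h1e, chr13:23622509-23622808, minus strand: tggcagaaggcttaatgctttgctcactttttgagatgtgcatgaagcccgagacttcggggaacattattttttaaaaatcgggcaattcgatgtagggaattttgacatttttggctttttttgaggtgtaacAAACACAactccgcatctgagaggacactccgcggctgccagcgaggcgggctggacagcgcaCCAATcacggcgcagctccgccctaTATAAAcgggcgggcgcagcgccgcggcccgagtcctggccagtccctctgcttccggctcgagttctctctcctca
Hist1h2aa, chr13:23934187-23934486, plus strand: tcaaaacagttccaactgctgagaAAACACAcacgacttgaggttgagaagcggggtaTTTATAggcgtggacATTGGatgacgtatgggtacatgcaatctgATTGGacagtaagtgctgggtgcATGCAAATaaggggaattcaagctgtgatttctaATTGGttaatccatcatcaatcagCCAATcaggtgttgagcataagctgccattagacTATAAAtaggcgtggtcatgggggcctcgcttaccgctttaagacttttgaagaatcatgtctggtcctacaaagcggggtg
Hist3h2a, chr11:58954435-58954734, plus strand: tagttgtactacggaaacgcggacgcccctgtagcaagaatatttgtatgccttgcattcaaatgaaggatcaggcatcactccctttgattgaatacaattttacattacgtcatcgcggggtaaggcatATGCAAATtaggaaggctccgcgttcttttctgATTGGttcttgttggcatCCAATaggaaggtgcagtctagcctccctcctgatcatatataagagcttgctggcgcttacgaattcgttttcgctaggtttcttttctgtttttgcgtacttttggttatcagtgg
Hist3h2ba, chr11:58948661-58948960, plus strand: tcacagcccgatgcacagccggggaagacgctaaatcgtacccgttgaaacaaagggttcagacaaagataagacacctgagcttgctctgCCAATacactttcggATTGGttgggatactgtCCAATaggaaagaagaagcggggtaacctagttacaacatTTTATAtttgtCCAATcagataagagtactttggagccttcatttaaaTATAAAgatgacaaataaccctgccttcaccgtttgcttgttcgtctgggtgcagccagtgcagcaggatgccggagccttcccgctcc
Hist3h2a carries the octamer and no TATAAA, Hist3h2ba carries TATAAA and no octamer, and the H1 box is present in Hist1h1e and absent from Hist1h1a. These matches describe letters in the windows and no binding was measured.

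Many members are near-identical copies, which limits how far reads can be assigned to 1 gene. Over windows of 50 bases, 32 members had more than 50% of windows found in no other transcript, and 5 had none. The median share of unique windows was 98.9% for H1, 32.4% for H2A, 50.3% for H2B, 38% for H3 and 60.5% for H4 genes. Reads were counted on overlapping genes too. Counts of Hist3h2a differed from those of Trim17, whose exons overlap it, by -19 to 40 reads per library (Hist3h2a minus Trim17), and the counts of the Hist2h2bb entries never differed by a ratio above 1.03.

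H2A genes took 32.3% of all member counts, H2B 27.1%, H3 18.1%, H4 16.4% and H1 6.04%. Members without unique windows still held counts, such as Hist2h2aa1 (323307 in all libraries) and Hist2h2aa2 (344569), so that shared reads were not left out. Whether such a read was counted on each copy is not given in the sources used here. If it was, sums, shares and levels of types with many shared windows count the same reads repeatedly, and H1 values least so. Per length, as CPM per kilobase of exon (RPKM), the median gene stood at 696 for H2A, 535 for H4, 430 for H2B, 345 for H3 and 101 for H1. Within H2A the level ranged from 11.7 RPKM for Hist2h2ab to 1647 RPKM for Hist1h2ah, and within H2B from 0.309 RPKM for Hist2h2be to 1100 RPKM for Hist1h2bk. H3 genes lay between 200 and 1130 RPKM and H4 genes between 24.1 RPKM (Hist2h4) and 1100 RPKM (Hist1h4n). Among H1 genes, Hist1h1a was highest at 642 RPKM, followed by Hist1h1b at 207, Hist1h1c at 120, Hist1h1e at 82.8, Hist1h1d at 39 and Hist1h1t at 5.45 RPKM. RPKM depend on the annotated exon length, which in some members runs far past the stem-loop. Hist1h1d has 7425 exon bases, with 4884 after the match, against 743 exon bases in Hist1h1b. Its share of H1 counts at 2iL day 0 was nonetheless higher (20.1%, against 13% for Hist1h1b). In Hist2h4, 1257 of 1630 bases lie after the match.

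In sum, member levels were highest at day 3 in 5 of 6 series (medium and course) and at day 2.5 in SL Neural. Starting from 2iL, the summed level was 18291 ± 3909 CPM at day 0, 22135 ± 5615 at day 3 and 16968 ± 2756 at day 7 (SD, n = 3). Starting from SL it was 15760 CPM in the single day 0 library, 19052 ± 2345 at day 1, 26752 ± 1589 at day 3 and 21822 ± 3921 at day 7 (n = 3). The 2iL ranges of these days overlap. Fewer cells in S phase and less histone mRNA per cell cannot be told apart in bulk RNA.

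The log2 ratio of day 3 over day 0 from 2iL was 0.09 in EB, 0.31 in EpiSC and 0.40 in Neural (mean 0.27 ± 0.16, SD, n = 3), and that of day 7 over day 3 was -0.42, -0.19 and -0.49. From SL, day 3 over day 1 was 0.55, 0.66 and 0.29 (mean 0.50 ± 0.19) and day 7 over day 3 was -0.12, -0.37 and -0.43. Every course thus had a higher sum at day 3 than on its reference day, and a lower sum at day 7 than at day 3. In 2iL EB the rise was small, at 0.03 with TMM-scaled library sizes, and day 1 lay below day 0 (-0.15). From day 0 to day 3 in 2iL the ratio was 0.09 ± 0.06 for H1, 0.36 ± 0.26 for H2A, 0.25 ± 0.16 for H2B, 0.31 ± 0.17 for H3 and 0.17 ± 0.01 for H4, all of them mean log2 ratios of summed CPM with the spread over 3 courses.

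**Figure D1:**
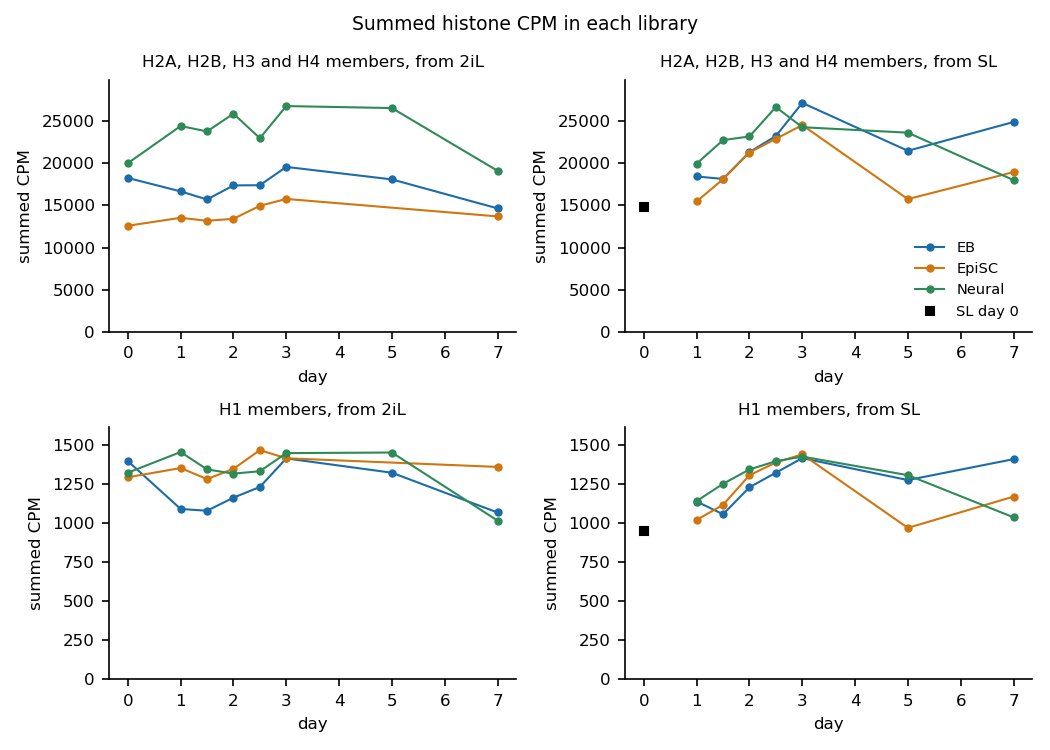
Summed CPM of the core histone members (top) and of the H1 members (bottom) by day, from 2iL (left) and SL (right), with 1 point per library, 1 line per course and a square for the single SL day 0 library. From 2iL the core sum of the EpiSC course lies below those of EB and Neural on every day both were measured, and H1 sums stay between 950 and 1470 CPM throughout.

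Single members were compared between days in edgeR's quasi-likelihood model with course as a block (Benjamini-Hochberg adjusted p under 0.05 over all genes tested, called here). All 69 members passed the filter on low counts in every model. From day 0 to day 1 in 2iL, 8 members rose and 1 fell, where 28.6% of the 16305 genes tested were called. From day 0 to day 3, 22 rose and 1 fell (33.3% of members, against 51.4% of all genes), and from day 0 to day 7, 6 rose and 14 fell (29%, against 63.6%). With library totals in place of TMM factors, which moved the median of all genes to 0.10, the last split was 10 higher and 11 lower (63.2% of all genes called). The members' share lay below that of all genes in each of these. From day 3 to day 7, a pair of days chosen after values were seen, 45 members fell and none rose (65.2%, against 28.2% of all genes in either direction and 13.9% lower). From SL, 49 members rose from day 1 to day 3 and none fell (71%, against 43.9% of 15482 genes in either direction and 22.8% higher), 10 rose and 2 fell from day 1 to day 7 (17.4%, against 63.5%) and 6 fell from day 3 to day 7 (8.7%, against 31.6% in either direction and 16% lower).

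The median log2 fold change of the 69 members was 0.22 from day 0 to day 3 in 2iL (all genes 0.03), -0.18 to day 7 (all genes 0.04) and 0.45 from day 1 to day 3 in SL (all genes 0.02). Percentages in the next sentences are the shares of all genes called in the same refit, in either direction. Without the EpiSC course the SL count at day 3 was 4 members (24.8%), without EB 27 (35.6%) and without Neural 60 (31.7%). The 2iL fall from day 3 to day 7 was called in 11 members without EpiSC (11.8%), 10 without Neural (14.1%) and 29 without EB (24.2%). At day 3 from 2iL, 13 members were called without Neural (36.7%) and 15 without EpiSC (31.4%). At day 1 from 2iL it was 1 member without EpiSC (11.4%) or without Neural (14.9%) and 15 without EB (27.1%). At day 7 from SL, 6 were called without EB (57.4%) or without EpiSC (50.1%). From day 3 to day 7 in SL, 13 were called without EB (19.9%) and 2 without EpiSC (10.2%).

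By cluster, the calls were spread as follows. Of the 11 Hist2 members, 7 rose at day 1 and 10 at day 3 in 2iL, with a median log2 fold change of 0.79 at day 3. Of the 55 Hist1 members, 1 rose and 1 fell at day 1, and 9 rose and 1 fell at day 3 (median 0.18). Both Hist3 genes and Hist4h4 rose at day 3. At day 7, 14 Hist1 members fell and 2 rose, while 2 Hist2 members rose and none fell. From SL, 40 of 55 Hist1 and 6 of 11 Hist2 members rose from day 1 to day 3. Of all genes tested, 28.6% were called at day 1, 51.4% at day 3 and 63.6% at day 7 in 2iL, in either direction. From SL, 43.9% were called from day 1 to day 3 in either direction and 22.8% were higher. The share of Hist1 members called lay below that of all genes on each of the 2iL days. No test of the difference between clusters was made, and Hist2 copies share reads, so that its 11 members are not 11 separate results.

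**Figure D2:**
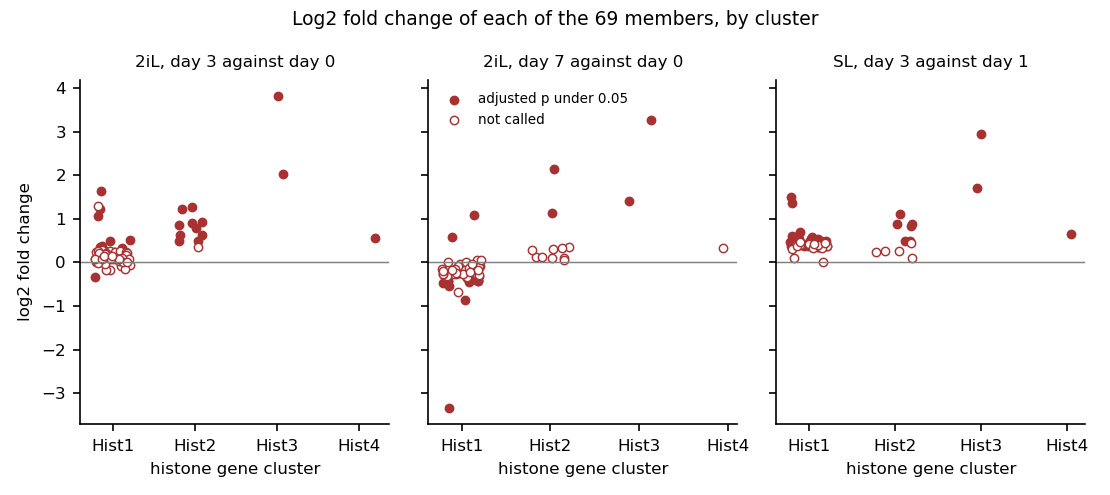
Log2 fold change of each of the 69 members (1 point each, filled where the adjusted p was under 0.05) by cluster, for 3 comparisons of days. The Hist3 genes are the highest points in each panel except for Hist2h2be at day 7 from 2iL, and Hist1h2aa is the lowest point at day 7.

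Among the linker histones, Hist1h1e rose in both media and Hist1h1a fell in 2iL. Hist1h1e (chr13:23620629-23622558, minus strand), a somatic H1 gene, stood at 116, 82.8 and 77.4 CPM at 2iL day 0 in EB, EpiSC and Neural, at 192, 206 and 262 CPM at day 3 and at 213, 207 and 191 CPM at day 7. From SL it stood at 77.5, 80.8 and 91.8 CPM at day 1 and at 214, 207 and 235 CPM at day 3. Neither set of day 3 libraries overlapped its start. Hist1h1e rose by a log2 fold change of 1.22 ± 0.16 (SE) at day 3 and 1.08 ± 0.16 at day 7 from 2iL (edgeR adjusted p 1.12e-05 and 2.16e-05), and by 1.37 ± 0.16 and 1.29 ± 0.16 from SL (adjusted p 7.3e-06 and 4.23e-06). These calls held without any single course. Its exons overlap those of Hist1h2be by 496 bases, and Hist1h2be itself was not called at day 3 from 2iL (0.26).

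Hist1h1a, the most abundant H1 gene, went the other way in 2iL. It stood at 547, 557 and 586 CPM at day 0, at 495, 505 and 521 CPM at day 3 and at 257, 444 and 292 CPM at day 7. All day 7 libraries were below all day 0 libraries, the EpiSC library least so. It fell by 0.86 ± 0.14 on the log2 scale at day 7 (edgeR adjusted p 7.14e-05). From SL its levels at day 1 (505, 450 and 497 CPM) and day 7 (475, 388 and 310 CPM) overlapped. This change was not called (log2 fold change -0.34 ± 0.15, edgeR adjusted p 0.0593). From SL day 2 to day 7, a pair chosen after values were seen, Hist1h1a was called lower (-0.41 ± 0.15, edgeR adjusted p 0.0294). Of all genes, 56.7% were called there. The single SL day 0 library was lower than those of day 1, at 306 CPM.

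The share of H1 counts on Hist1h1a went from 42.1 ± 2.72% at day 0 to 28.5 ± 4.27% at day 7 in 2iL (SD, n = 3). In SL it was 44 ± 0.442% at day 1 and 32.2 ± 2.07% at day 7, but also 32.2% in the single day 0 library, so that the day 7 share was below that of day 1 and level with that of day 0. That on Hist1h1e went from 6.84 ± 1.29% at day 0 to 18 ± 2.43% at day 7 in 2iL, and in SL from 6.82% in the day 0 library and 7.58 ± 0.676% at day 1 to 17.1 ± 0.353% at day 7. Hist1h1c fell from day 0 to day 1 in 2iL (-0.47 ± 0.11, edgeR adjusted p 0.00351) and was also below day 0 at day 7 (-0.43 ± 0.11, 0.00227), and from day 1 to day 3 in SL it rose (0.44 ± 0.11, 0.00568). These calls have different reference days. Its mean level was 239, 174, 195 and 186 CPM on days 0, 1, 3 and 7 from 2iL, and 230 (1 library), 158, 217 and 198 CPM on these days from SL, so that in both media it was lowest at day 1 among them. Hist1h1d rose by 0.27 ± 0.10 at day 3 from 2iL and by 0.40 ± 0.10 from SL (edgeR adjusted p 0.0278 and 0.00457), and Hist1h1b fell by 0.42 ± 0.18 at day 7 from 2iL (adjusted p 0.0443).

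**Figure D3:**
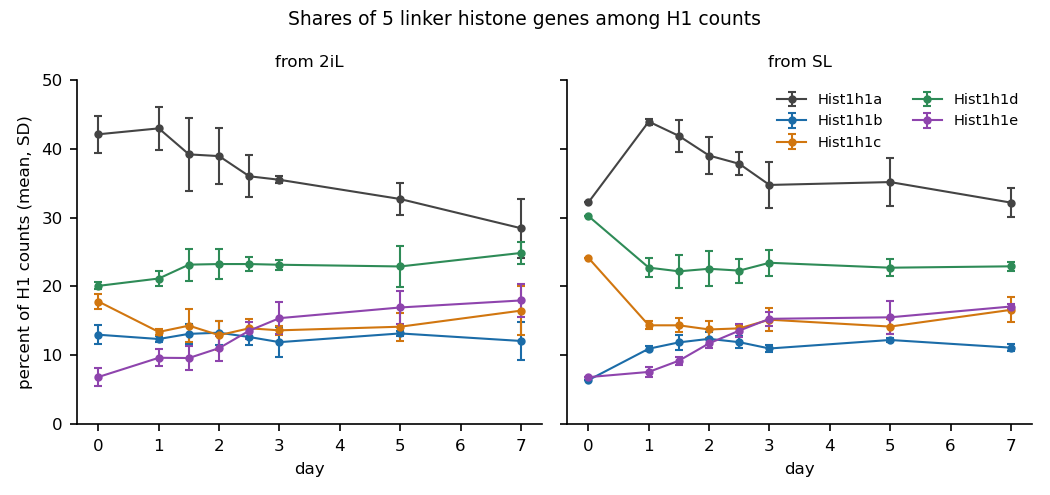
Percent of the counts on all 6 H1 genes that fell on each of 5 of them, by day, as mean and SD over courses (SL day 0 is 1 library). Hist1h1a goes down from 42.1% to 28.5% in 2iL while Hist1h1e goes up from 6.84% to 18%, and in SL from 7.58% at day 1 to 17.1%. In the SL day 0 library Hist1h1a is at 32.2%, the level of SL day 7.

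The Hist3 genes, which encode an H2A and an H2B and are both on the plus strand of chromosome 11 (Hist3h2ba at chr11:58948920-58949533 and Hist3h2a at chr11:58954685-58956830), had the highest fold changes among members at day 3. Hist3h2ba stood at 3, 2.53 and 2.1 CPM in EB, EpiSC and Neural at 2iL day 0, at 11.1, 21.8 and 41.7 CPM at day 2, at 23, 48 and 58.4 CPM at day 3 and at 12.6, 50.4 and 27.6 CPM at day 7. From SL it went from 1.76 CPM in the day 0 library and 4.96, 7.2 and 9.05 CPM at day 1 to 39.9, 61.2 and 63.7 CPM at day 3. It was thus low in every ESC library and higher in every library from day 2 on. Hist3h2ba rose by 3.82 ± 0.43 at day 3 and 3.26 ± 0.42 at day 7 from 2iL (edgeR adjusted p 2.55e-06 and 6.39e-06), and by 2.95 ± 0.35 and 2.35 ± 0.35 from SL (1.21e-05 and 3.26e-05).

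Hist3h2a levels were 51.1, 43.3 and 42.8 CPM at 2iL day 0, 174, 189 and 221 CPM at day 3 and 105, 164 and 120 CPM at day 7, and 59.1, 58.8 and 74.1 CPM at SL day 1 against 201, 213 and 220 CPM at day 3. It rose by 2.04 ± 0.20 at day 3 and 1.42 ± 0.19 at day 7 from 2iL (edgeR adjusted p 6.11e-07 and 1.19e-05) and by 1.71 ± 0.19 and 1.14 ± 0.19 from SL. Its exons overlap those of Trim17 by 708 bases, and reads of these genes cannot be told apart.

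Testis-type histones were also read in these libraries. Hist1h2aa (chr13:23934462-23934851) and Hist1h2ba (chr13:23933773-23934156) are divergent neighbours that encode the testis forms of H2A and H2B, and Hist1h1t (chr13:23695814-23696725) encodes testis H1. Hist1h2aa stood at 4.37, 2.66 and 2.71 CPM at 2iL day 0, at 16.6, 9.59 and 20.4 CPM at day 2, at 10.1, 9.78 and 11.8 CPM at day 3 and at 0.0266, 0.528 and 0.635 CPM at day 7, the last from 1, 10 and 11 reads. From SL it stood at 2.51, 4.86 and 4.5 CPM at day 1, at 8.69, 25 and 24.4 CPM at day 2 and at 0.248, 0.263 and 2.06 CPM at day 7. Day 2 libraries lay above all day 0, day 1 and day 7 libraries of their medium.

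From 2iL, Hist1h2aa rose by 2.25 ± 0.42 from day 0 to day 2 (edgeR adjusted p 0.000439) and fell by 5.60 ± 0.53 from day 2 to day 7 (5.91e-07), which left it 3.35 ± 0.52 below day 0 on the log2 scale (3.95e-05). From SL it rose by 2.22 ± 0.44 from day 1 to day 2 (edgeR adjusted p 0.00267) and fell by 4.66 ± 0.53 to day 7 (4.63e-06). Of all genes, 44.6% were called from day 0 to day 2 and 58.1% from day 2 to day 7 in 2iL, and 19.5% and 56.7% in the SL comparisons. Day 2 was chosen after values were seen. From day 3 to day 7, Hist1h2aa and Hist1h1t had the lowest log2 fold changes among members in both media, at -4.98 and -1.99 in 2iL and at -3.94 and -2.02 in SL. Its neighbour Hist1h2ba was not called at day 2 or day 3 in either medium. Hist1h1t went from 2.77, 2.26 and 1.63 CPM at 2iL day 0 to 3.67, 10.6 and 8.06 CPM at day 2 and to 0.799, 4.33 and 0.404 CPM at day 7, with a rise to day 2 of 1.66 ± 0.61 (edgeR adjusted p 0.0369) and a fall to day 7 of 2.35 ± 0.63 (0.00483). From SL it fell by 2.49 ± 0.33 from day 2 to day 7 (edgeR adjusted p 1.95e-05).

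**Figure D4:**
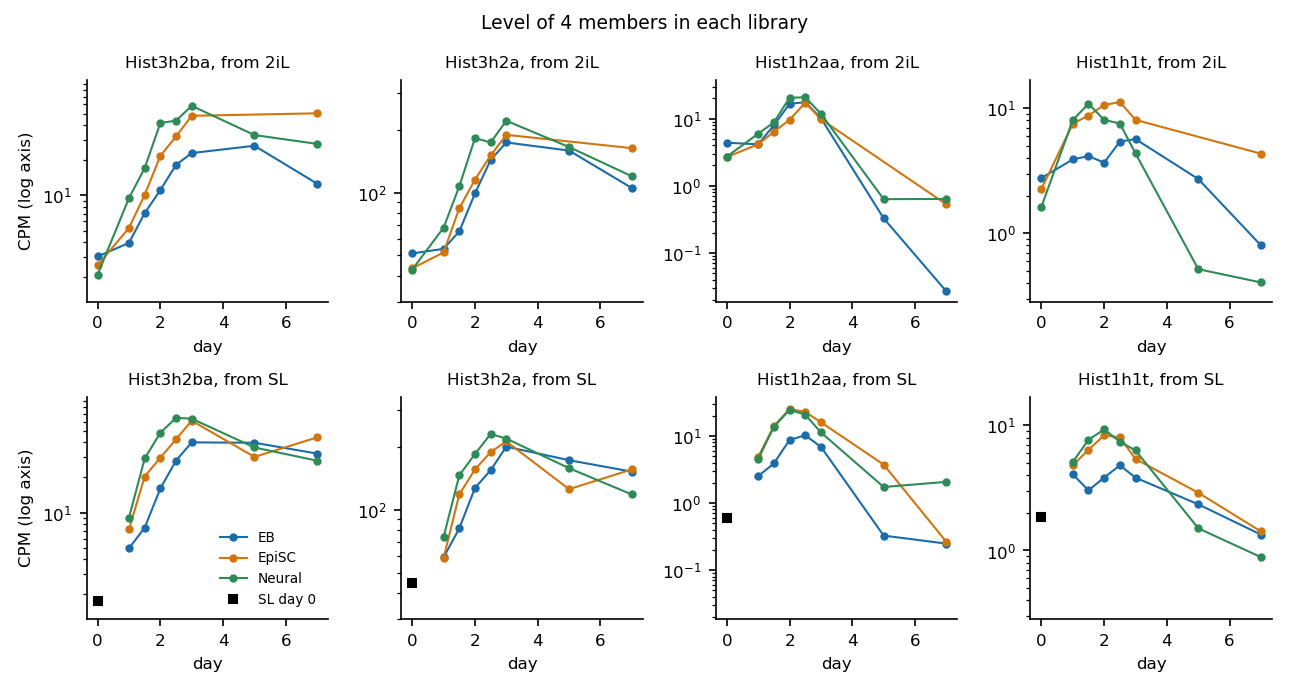
CPM (log axis) by day of Hist3h2ba, Hist3h2a, Hist1h2aa and Hist1h1t from 2iL (top) and SL (bottom), 1 point per library and 1 line per course, with SL day 0 as a square. The Hist3 genes are above day 0 in all libraries from day 2 on, while Hist1h2aa is highest at day 2 or 2.5 and, at day 7, below 2iL day 0 and SL day 1.

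The highest H2A genes by CPM, Hist1h2ah, Hist1h2ad, Hist1h2ap and Hist1h2ai, averaged 667, 631, 616 and 614 CPM, with 32.9% of windows unique in Hist1h2ad and under 10% in the others. Hist1h2ah went from 764, 439 and 624 CPM at 2iL day 0 to 756, 534 and 881 CPM at day 3 and 509, 455 and 653 CPM at day 7, ranges that overlap, and from 574, 513 and 632 CPM at SL day 1 to 859, 766 and 839 CPM at day 3, ranges that do not. It was not called at day 3 from 2iL and rose by 0.50 ± 0.14 from SL (edgeR adjusted p 0.00998). Of the 19 H2A members, 8 rose at day 3 from 2iL, where 51.4% of all genes were called in either direction. From SL 17 rose, where 43.9% of all genes were called in either direction and 22.8% were higher. Outside Hist1, Hist2h2ab rose by 0.96 ± 0.26 at day 1 and 1.22 ± 0.26 at day 3 from 2iL (edgeR adjusted p 0.0118 and 0.00105), between 1.80 and 2.47 CPM at day 0 and between 4.06 and 6.83 CPM at day 3.

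Of the 19 H2B members, 5 rose at day 3 from 2iL (51.4% of all genes called in either direction). From SL 11 rose (43.9% of all genes called in either direction and 22.8% higher). Hist1h2bq, the highest at 621 CPM on average, stood at 586, 380 and 710 CPM at 2iL day 0 and at 588, 412 and 805 CPM at day 3, without a call, and it stood at 649, 527 and 703 CPM at SL day 1 and 884, 781 and 795 CPM at day 3 (0.38 ± 0.14, edgeR adjusted p 0.0398). Hist1h2br, Hist1h2bk and Hist1h2bc followed at 579, 524 and 481 CPM. Hist1h2bh rose at day 1 from 2iL (0.79 ± 0.19, edgeR adjusted p 0.00583), from 60.1, 23.6 and 59.8 CPM to 85.6, 50.3 and 114 CPM. Hist2h2be rose by 1.59 ± 0.38 at day 1 and 2.14 ± 0.38 at day 7 from 2iL (edgeR adjusted p 0.00556 and 0.000132), but from 11, 4 and 6 reads at day 0, so that its folds rest on few counts.

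All 12 H3 members rose from day 1 to day 3 in SL (43.9% of all genes called in either direction and 22.8% higher). From day 0 to day 3 in 2iL 5 rose (51.4% of all genes called in either direction). Hist2h3c1, none of whose windows is unique, went from 289, 158 and 262 CPM at 2iL day 0 to 340, 246 and 475 CPM at day 1 and 425, 351 and 586 CPM at day 3, and rose by 0.53 ± 0.16 and 0.90 ± 0.17 (edgeR adjusted p 0.0227 and 0.000309). Each course was higher at day 1 than at day 0. Hist2h3b, also without unique windows, and Hist2h3c2, with 63.5% of windows shared with Gm20634, whose exons overlap Hist2h3c1, had log2 fold changes of 0.92 and 0.86 at day 3. By mean CPM, Hist1h3h was the highest gene of this type (464), followed by Hist1h3b (433), Hist1h3d (417) and Hist2h3c1 (399). Hist1h3h stood at 422, 306 and 590 CPM at 2iL day 0, at 391, 315 and 626 CPM at day 3 and at 249, 301 and 482 CPM at day 7, and fell by 0.42 ± 0.12 from day 0 to day 7 (edgeR adjusted p 0.00619). Hist1h3g fell by 0.54 ± 0.13 over the same days (adjusted p 0.00213).

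Of the 13 H4 members, 2 rose at day 3 from 2iL, namely Hist2h4 (0.79 ± 0.18, edgeR adjusted p 0.00179) and Hist4h4 (0.56 ± 0.18, adjusted p 0.0145), which are the H4 genes outside Hist1. From SL, 6 rose, among them Hist2h4 (1.11 ± 0.25, adjusted p 0.00233) and Hist4h4 (0.66 ± 0.21, adjusted p 0.0205). Of all genes, 51.4% were called from 2iL and 43.9% from SL in either direction, and 22.8% were higher from SL. Hist4h4 (chr6:136801553-136804415) went from 95.8, 78.8 and 86.5 CPM at 2iL day 0 to 121, 128 and 147 CPM at day 3, above all day 0 libraries. Hist1h4n, the highest H4 gene at 473 CPM on average, stood at 400, 437 and 517 CPM at day 0 and at 488, 463 and 574 CPM at day 3 and was not called. Hist1h4a, Hist1h4m and Hist1h4d followed at 386, 380 and 371 CPM.

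Members were also sorted by the length of transcript past the stem-loop, for day 3 against day 0 from 2iL. Of 22 with more than 100 bases after the match, 10 rose and 1 fell (median log2 fold change 0.27), against 4 of 22 that rose with up to 100 bases (median 0.17) and 7 of 23 without a match (median 0.21), while 2 members had no transcript to search. Of all genes, 51.4% were called in this comparison, in either direction. The group without a match includes members with short annotated transcripts and is not shown to lack the stem-loop. Ranges of fold changes overlapped between the groups, and no test was made between them.

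In ESCs before differentiation, 3 members were higher in 2iL than in SL, where 30.8% of 14947 genes were called in either direction and 13.5% were higher. SL has 1 library here, so that the spread comes from 2iL alone and the SL library is assumed to vary like those of 2iL. Hist1h2aa stood at 4.37, 2.66 and 2.71 CPM in 2iL and 0.603 CPM in SL (log2 fold change 2.49 ± 0.56, edgeR adjusted p 0.00974). Hist1h1b stood at 198, 172 and 153 CPM against 60.7 CPM (1.58 ± 0.19, 0.000513) and Hist1h1a at 547, 557 and 586 CPM against 306 CPM (0.94 ± 0.20, 0.00759). All 2iL libraries were above the SL library for these genes. The median log2 fold change of the members was 0.26. It was 0.43 without the EpiSC library and 0.03 without the Neural library. With the spread of all 45 libraries, Hist1h1b and Hist1h1a were still called (edgeR adjusted p 0.00028 and 0.0244) and Hist1h2aa was not (0.135).

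Averaged over days 1 to 7, 35 members were lower and 2 higher in series started from 2iL (37% of 16457 genes called). With the days of each series summed, so that a series counts as 1 sample (n = 3 per medium, chosen after values were seen), no member was called in edgeR, 8 had an unadjusted p under 0.05 and 5.48% of all genes were called, so that the calls of this comparison rest on treating days as separate samples. Over single libraries and by type, 16 of 19 H2B, 10 of 13 H4 and 8 of 12 H3 genes were lower, against 1 of 19 H2A genes, and the 2 higher members were the H1 genes Hist1h1b (0.20 ± 0.07, edgeR adjusted p 0.0187) and Hist1h1e (0.14 ± 0.05, 0.0399). None of the 11 Hist2 members was called. The count and its direction depend on the courses used. Without EpiSC, 1 member was higher and 0 were lower (19% of all genes called). Without EB, 2 were higher and 2 lower (33.3%). Without Neural, 55 were lower and 0 higher (30%).

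Hist1h2ba had the largest difference. In 2iL EpiSC it was at 25.4 CPM on day 0, and at 24.3, 32.5, 36.3 and 24.3 CPM on days 1, 2, 3 and 7. In 2iL EB it was at 120, 109, 122, 131 and 103 CPM on these days and in 2iL Neural at 154, 183, 197, 172 and 106 CPM, and in SL at 124 CPM in the day 0 library. Its difference between media was -0.83 ± 0.21 (edgeR adjusted p 0.00214). Hist1h4j, an H4 gene, had -0.63 ± 0.12 (0.00021), with 92.9 CPM in the 2iL EpiSC library of day 0 against 126 and 217 CPM in EB and Neural.

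The change from day 1 to day 7 did not pass the test of a difference between media for any member in edgeR (0 of 69, with 3.22% of 16457 genes called). At an unadjusted p under 0.05 there were 6 members, and DESeq2 called 1 (5.09% of all genes). The log2 difference was negative for all 69 members (median -0.41, all genes 0.02), and the lowest edgeR adjusted p was 0.0815. Members share reads and come from the same libraries, so that their signs are not 69 separate results.

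On days 1 to 2, most members had lower levels in EB and in EpiSC than in Neural. Over single libraries (6 per course), in EB, 58 were lower and none higher (84.1% of members, against 41.9% of 15012 genes in either direction and 19.9% lower), and in EpiSC 60 were lower and none higher (87%, against 6.57% in either direction and 2.71% lower). The median log2 fold change was -0.52 for EB and -0.69 for EpiSC. The 6 libraries of a course are 3 days from each of 2 series, and libraries of a series deviated together, so that p-values over them are too small. With the days of each series summed (2 samples per course, chosen after values were seen), the medians were -0.50 and -0.69, and edgeR called 4 members in EB (13.7% of all genes), namely Hist3h2ba, Hist1h1t, Hist3h2a and Hist4h4. In EpiSC it then called none of the members or other genes, and 60 members had an unadjusted p under 0.05. Both comparisons share the Neural libraries. Over single libraries, every H3 and H4 gene was lower in both, as were 16 and 18 of the 19 H2B genes and 13 and 16 of the 19 H2A genes, while 4 and 1 of the 6 H1 genes were called.

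These counts differed by medium, where each course is 1 series of 3 days. Within 2iL 63 members were lower in EB and 62 in EpiSC, where 33.1% and 5.39% of all genes were called in either direction, and within SL 33 and 8, where 31% and 0.886% were called. The 2iL libraries of day 0 had the same order before differentiation, with 21333 CPM in Neural against 19658 in EB and 13882 in EpiSC. Rn7s1 moved with the course as well, at 21353 to 40302 CPM in Neural libraries, 8445 to 25545 in EB and 7032 to 29265 in EpiSC, and its part in the difference was not tested.

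**Figure D5:**
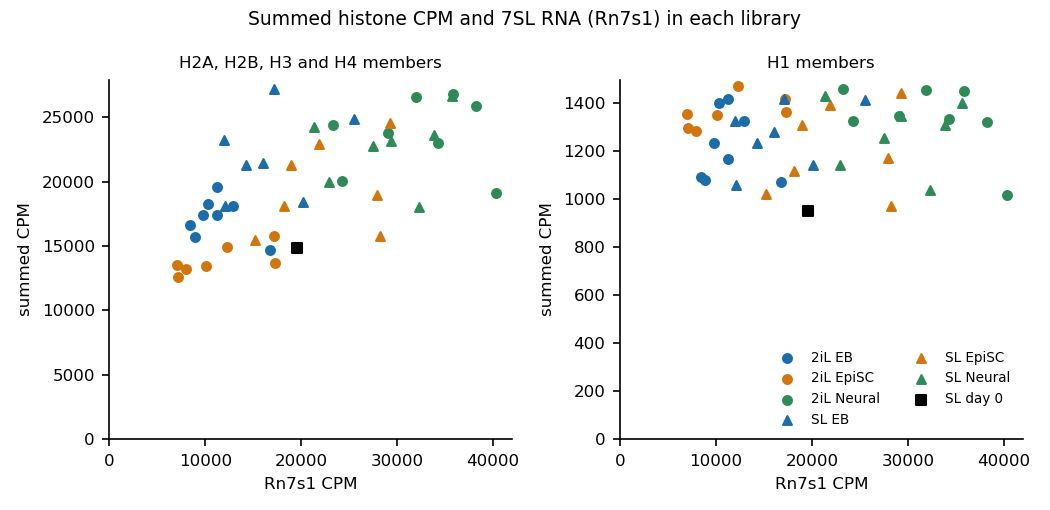
Summed CPM of the core histone members (left) and of the H1 members (right) against Rn7s1 CPM, 1 point per library, with colour for course and shape for medium. 2iL EpiSC libraries have core sums of 12586 to 15767 CPM with Rn7s1 up to 17304 CPM, Neural libraries have Rn7s1 of 21353 CPM or more, and the H1 sums of the courses overlap.

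Hist3h2ba had the largest difference in EB, at 4.96 and 9.05 CPM in EB and Neural on SL day 1 and 11.1 and 41.7 CPM on 2iL day 2 (-1.60 ± 0.15, edgeR adjusted p 2.24e-06, or 0.00549 with the days of a series summed). Hist1h1t was also lower in EB (-1.19 ± 0.15, edgeR adjusted p 3.33e-05, or 0.0145). In EpiSC, the largest differences were those of Hist1h2ba (-1.56 ± 0.38, edgeR adjusted p 0.0272), Hist1h2bl (-1.14 ± 0.21, 0.00665) and Hist1h4j (-1.14 ± 0.21, 0.00644), and all were already low in the EpiSC library of 2iL day 0. With the days of a series summed their adjusted p were 0.566, 0.523 and 0.512.

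On days 5 and 7, Hist1h2aa was lower in EB than in Neural (-2.60 ± 0.78, edgeR adjusted p 0.0387), as the only member called (28.8% of 15465 genes in either direction and 15.7% lower), and Hist1h2an (-0.76) and Hist1h2ae (-0.61) were lower in EpiSC (16% of genes in either direction and 8.67% lower). Without SL day 7 the EB count was 33 members (22.2% of all genes called). Without another combination of medium and day it was 1 or 0 (10.9% to 16.9%). In EpiSC it was 7 without SL day 7 (2.47%) and 0 without each of the others (4.27% to 12.8%). These libraries, too, are days of 2 series per course.

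Genes that serve the histone supply were compared from fixed lists, with day 0 as the reference in 2iL and day 1 in SL throughout, so that values from the media are not changes over the same span. Of 16 DNA replication genes, 1 rose and 7 fell to day 3 in 2iL (50%, against 51.4% of all genes), and 1 rose and 13 fell to day 7 (87.5%, against 63.6%). From SL, none rose and 6 fell to day 3 (37.5%, against 43.9%), and none rose and 14 fell to day 7 (87.5%, against 63.5%). The shares called at day 3 were thus near or below those of all genes. Mcm5, a subunit of the replicative helicase, went from 469, 521 and 476 CPM at 2iL day 0 to 346, 329 and 335 CPM at day 3 and 209, 259 and 197 CPM at day 7 (log2 fold change -0.56 ± 0.08 and -1.21 ± 0.08). Over the same span to day 3, 22 members rose and 1 fell, and the share of members called lay below the 51.4% of all genes. How the members' changes relate to those of the replication genes was not tested. Of 6 mitosis genes, 4 fell to day 7 in 2iL (66.7%) and 6 in SL (100%), with Ccnb1, a mitotic cyclin, at -0.78 ± 0.11 and -0.87 ± 0.09.

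Of 9 histone chaperones and carriers, 6 fell and 1 rose to day 7 from 2iL (77.8%, against 63.6% of all genes) and 8 fell from SL (88.9%, against 63.5%). Hat1, which acetylates new H4, was at 300, 383 and 293 CPM at 2iL day 0 and at 119, 190 and 111 CPM at day 7 (-1.31 ± 0.13), and also fell from SL. Asf1a, a chaperone of H3 and H4, had 0.28 ± 0.10 from day 0 in 2iL and -0.58 ± 0.10 from day 1 in SL. It stood at 30.8, 32 and 23.6 CPM at 2iL day 0, at 45.5, 55 and 42.9 CPM at day 1 and at 34.5, 47.1 and 29.2 CPM at day 7. From SL it stood at 26.8 CPM in the day 0 library, at 41.8, 46.7 and 41 CPM at day 1 and at 30.2, 32.4 and 25.9 CPM at day 7. Every course of both media was thus lower at day 7 than at day 1, and the change between these days did not pass the test of a difference between media (0.15 ± 0.14, edgeR adjusted p 0.653).

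Of 12 genes for histone gene transcription and 3′ end processing, 2 rose and 2 fell to day 7 from 2iL (33.3%, against 63.6% of all genes), and 2 rose and 6 fell from SL (66.7%, against 63.5%). Lsm11, part of the U7 particle that guides cleavage of histone pre-mRNA, rose in both (0.69 ± 0.14 and 0.53 ± 0.11), from 11.9, 12.8 and 13.3 CPM at 2iL day 0 to 24.9, 21.3 and 17.7 CPM at day 7. Slbp, which binds the stem-loop, had -0.26 ± 0.13 in 2iL without a call and fell in SL (-0.37 ± 0.09). Npat, the coactivator of histone genes, was higher in EB (0.33 ± 0.05) and EpiSC (0.21 ± 0.05) than in Neural on days 1 to 2 over single libraries, and with the days of a series summed only the EB difference was called (edgeR adjusted p 0.031 and 0.523).

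Of 11 replacement histone genes, which are expressed outside S phase, 4 rose and 3 fell to day 7 in each medium, and this share (63.6%) was that of all genes (63.6% in 2iL and 63.5% in SL). H1f0, a linker histone of resting cells, went from 37.4, 31.6 and 36.5 CPM at 2iL day 0 to 139, 73.2 and 116 CPM at day 7 (1.60 ± 0.37) and rose by 2.22 ± 0.19 from SL. H1fx rose by 0.82 ± 0.34 and 1.40 ± 0.37, and H3f3a rose by 0.67 ± 0.11 from 2iL. H2afx, a substrate of the DNA damage response, fell in both (-0.69 ± 0.11 and -0.36 ± 0.13). H2afy, a macroH2A gene, fell from day 0 to day 3 from 2iL (-1.74 ± 0.31) and rose from day 1 to day 7 from SL (1.80 ± 0.23). These values have different spans and references. From 2iL it stood at 144, 133 and 140 CPM at day 0 and at 26, 37 and 35.1 CPM at day 1. At day 7 from 2iL it was at 101, 93 and 91.4 CPM. From SL it stood at 47.5 CPM in the day 0 library and at 17.6, 25 and 29.9 CPM at day 1. At day 7 from SL it was at 94.6, 73.7 and 75.3 CPM. Every course of both media was thus higher at day 7 than at day 1, and a difference between media was not tested.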

How the data were processed

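Strand-specific, rRNA-depleted RNA-seq libraries were mapped by the authors to GRCm38 (mm10) with TopHat2 and counted per gene, by strand, with featureCounts (Ensembl release 82), per the labels and the study's methods, and the authors deposited raw counts per gene without normalization. Versions of these tools and the treatment of reads that map to several genes are not given in the sources used here. The 435 rows without a symbol (0.000879% of counts) were left out.

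CPM are counts over the library total in units of 1e6, and RPKM divide CPM by the exon length in GENCODE M21. Tests used edgeR 4.0.16 in R 4.3.3 (TMM factors, filterByExpr, quasi-likelihood F test, Benjamini-Hochberg adjustment, threshold 0.05), with DESeq2 1.42.0 as an alternative. Days were fitted within each medium with course as a block, media with day and course as terms, and courses with medium and day combinations as blocks. Same-course libraries deviated together (correlation above 0.1 in 132 of 140 pairs over 13767 genes, median 0.39, lowest -0.09), and the labels give the course. None of the 43 pairs of libraries of the same medium and day held copies (lowest chi-square per gene 18.7). Stem-loops, read uniqueness (windows of 50 bases, GENCODE M21 transcripts, no genome) and promoter motifs were counted by exact match with Python 3.11.15. Scripts were tested on simulated data.

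Members and gene lists were chosen with earlier results of these data known. Named are all H1 and testis-type members, the 4 highest members per type and the 2 members with the largest rise and fall per comparison, and genes of the lists that passed the threshold. Other members named (Hist2h3b, Hist2h3c2, Hist1h2be, Hist2h4, Hist4h4) and the day 2 and day 7 against day 3 comparisons, clusters and stem-loop groups were chosen after their values were seen. Alternatives were DESeq2, library totals without TMM factors, no filter, no block, only mostly unique members, each course or day left out and, added after values were seen, the days of a series summed.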

Additional observations from a re-analysis of the deposited data

How the results depend on the processing

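Calls of Hist3h2ba, Hist3h2a and Hist1h1e against day 0 or day 1 and of Hist1h1a at day 7 from 2iL passed the threshold under every alternative run, and none of the members' log2 fold changes that were refitted changed sign (551 of 695 refits kept their side of the threshold, 136 lost the call and 8 gained it). Counts of members moved far more. Percentages in brackets are the shares of all genes called in the same refit, in either direction. Without the replicate block of course, the 2iL counts were 3 at day 1 (18.7%), 7 at day 3 (41.6%) and 8 at day 7 (55.5%). For day 7 against day 3 in 2iL it was 1 (15.6%). The SL counts were 28 at day 3 (30.8%), 6 at day 7 (54.1%) and 2 for day 7 against day 3 (14.4%). Between media, averaged over days 1 to 7, it was 2 (25.7%). Without the replicate block of medium and day combinations, counts were 0 (27.6%) and 9 (12.6%) in EB and EpiSC against Neural on days 5 and 7. With the days of a series summed, an alternative chosen after values were seen, 4 members were called in EB and 0 in EpiSC against Neural on days 1 to 2, and 0 between media on average. DESeq2 called 1 member for the difference of changes between media (5.09%). On days 5 and 7 it called 2 in EB (35.1%) and 28 in EpiSC (24.4%). With no filter on low counts, 1 was called in EpiSC on days 5 and 7 (9.47%), where library totals gave 0 (16.5%). Within SL, chosen after values were seen, 33 and 8 were called in EB and EpiSC on days 1 to 2. With each course left out in turn, counts ran from 1 to 15 (day 1), 13 to 32 (day 3), 18 to 21 (day 7) and 10 to 29 (day 7 against day 3) in 2iL, from 4 to 60 (day 3), 6 to 15 (day 7) and 2 to 13 (day 7 against day 3) in SL, from 3 to 18 and 1 to 55 between media at day 0 and on average, and stayed at 0 for the difference of changes. With each day left out they ran from 46 to 57 and 43 to 61 (EB and EpiSC, days 1 to 2) and from 0 to 33 and 0 to 7 (days 5 and 7). Shares of all genes called differed between these refits too. At day 3 from SL they were 24.8% where 4 members were called and 31.7% where 60 were. Scaling by library totals raised the median of all genes to 0.10 at day 7 from 2iL, where 10 members were then higher and 11 lower, and to 0.12 in EpiSC on days 1 to 2. Causes of these moves were not tested, and refits with a course or day left out also have fewer libraries. Members that share reads, few counts for Hist2h2be and Hist1h2aa, and 1 library per medium, course and day limit what the values show.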
